A study of Mus musculus with 6 samples.

Results

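The adult globin genes were examined in mouse bone, namely Hba-a1 and Hba-a2, which encode alpha globin, and Hbb-bs and Hbb-bt, which encode beta globin. They were taken by symbol, together with the gene of the alpha globin chaperone, Ahsp. Of these 5 genes, 4 are described here, out of 54532 genes in the table, and Ahsp was not analysed here. The samples were 3 bone libraries from wild-type mice (WT) and 3 from mice of genotype MIR29cb2-/- (KO), which lack the cluster of miR-29b-2 and miR-29c. All were labelled as female C57BL/6J mice aged 16 weeks, and no other allele or agent was given for either group. The labels do not state the bone, the handling of marrow or whether each library is a separate animal. The p-values therefore cover the spread among these libraries, which may be technical.

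Red blood cells carry oxygen on haemoglobin, a tetramer of alpha and beta chains that each hold a heme group. Alpha and beta chains are made in near balance, because free alpha chains are unstable and harm the cell, and a dedicated chaperone binds them until they meet a beta chain. Globin transcripts build up late in red cell development, which in adult mice takes place mostly in bone marrow, and they persist in reticulocytes after the nucleus is lost. C57BL/6 mice carry the beta haplotype whose adult genes are Hbb-bs and Hbb-bt.

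Both gene pairs are tandem copies, and their sequences bear on how far each copy can be counted by itself. On build mm10, Hba-a1 (ENSMUSG00000069919) occupies bases 32283511 to 32284465 of chromosome 11, plus strand, and Hba-a2 (ENSMUSG00000069917) follows from 32296489 to 32297298. Hbb-bt (ENSMUSG00000073940) occupies bases 103812524 to 103813996 of chromosome 7, minus strand, and Hbb-bs (ENSMUSG00000052305) lies beside it from 103826534 to 103828096. The coding sequences of Hba-a1 and Hba-a2, 429 bases each, differed at 1 base. Those of Hbb-bs and Hbb-bt, 444 bases each, also differed at 1 base. Of all 50-base windows of the Hba-a2 transcript, 86.9% also occur in the Hba-a1 transcript, and 65.8% of those of Hbb-bs occur in Hbb-bt. The authors' handling of reads that fit both copies is not given in the sources used here, so values of single copies are uncertain and the sum of each pair is given as well.

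The 250 bases before the RefSeq start (GRCm38.p6) are shown for 3 of the genes, because globin levels are set largely through such promoters and their distal enhancers. The gene spans given above begin upstream of these RefSeq starts, so part of each printed window lies inside the gene span. Capitals mark matches on either strand to 4 motifs. The first, CCAAT, is a common promoter box. The others are the core CACCC, bound by KLF1-type factors, the core GATAA, bound by GATA factors, and a TATA-like box, ATATAA. In Hbb-bt a reverse match to the first motif directly precedes a forward one.
Hba-a1, chr11:32283422-32283671, plus strand: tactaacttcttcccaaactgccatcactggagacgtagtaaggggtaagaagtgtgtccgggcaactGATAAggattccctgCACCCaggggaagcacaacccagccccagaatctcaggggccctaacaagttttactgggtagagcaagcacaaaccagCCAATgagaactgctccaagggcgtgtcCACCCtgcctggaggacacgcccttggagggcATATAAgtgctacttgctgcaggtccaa
Hbb-bs, chr7:103827929-103828178, minus strand: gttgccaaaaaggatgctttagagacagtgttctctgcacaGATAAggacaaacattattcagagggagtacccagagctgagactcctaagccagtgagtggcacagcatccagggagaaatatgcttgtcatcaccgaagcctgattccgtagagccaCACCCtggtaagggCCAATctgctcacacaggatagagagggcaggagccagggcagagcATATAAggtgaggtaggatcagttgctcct
Hbb-bt, chr7:103813924-103814173, minus strand: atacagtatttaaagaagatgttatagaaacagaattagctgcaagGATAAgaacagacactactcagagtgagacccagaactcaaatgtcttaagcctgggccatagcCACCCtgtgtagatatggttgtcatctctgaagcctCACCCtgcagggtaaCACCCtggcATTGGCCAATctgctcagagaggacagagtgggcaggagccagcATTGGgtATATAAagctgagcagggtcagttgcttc
The Hba-a2 window is not printed, since over the longer window of 300 bases, 250 before and 50 from the start, it shares an identical run of 297 bases with Hba-a1. Over the same window the longest identical run between Hbb-bs and Hbb-bt was 14 bases. Every motif was found in each of the 4 globin promoters, with ATATAA starting 28 to 31 bases before the start. Among 32851 promoters in the RefSeq table, 33.8% held CCAAT, 52% CACCC, 22.6% GATAA and 9.1% ATATAA, and 0.466% held all of them. A match is a run of letters, not a measured binding site.

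The microRNAs of the deleted cluster share 1 seed, the bases 2 to 8 that pair with target transcripts, shown in capitals. Whether other loci still supply this seed in KO bone was not examined.
miR-29b-3p: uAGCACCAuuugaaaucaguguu
miR-29c-3p: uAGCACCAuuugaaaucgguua
The matching letters in a transcript are TGGTGCT. They overlap the start codon of both alpha globin genes and are absent from the beta globin transcripts. The windows below run from 12 bases before the start codon to its base 18, written as DNA, with the match in capitals.
Hba-a1: caggaagaaaccaTGGTGCTctctggggaa
Hba-a2: caggaagaaaccaTGGTGCTctctggggaa
Hbb-bs: gaaacagacatcatggtgcacctgactgat
Hbb-bt: gaaacagacatcatggtgcacctgactgat
Both alpha globin transcripts hold 2 matches, at bases 2 and 63 counted from the A of the start codon, and 0 in their 3′ UTRs. The 2 beta globin transcripts hold 0 matches, but at the same place of the start codon they read tggtgca, which differs in the last letter only. Of 20387 genes with such a 30-base window, 0.324% hold the letters there, and 19.1% of 22099 coding sequences hold them anywhere. MicroRNA sites are best known from 3′ UTRs, and whether these matches are bound was not measured.

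Globin transcripts were among the most abundant in every library. Hba-a1 ranked first of all genes by FPKM in WT replicates 1, 2 and 3 and in KO replicate 1, and second in KO replicates 2 and 3. FPKM divides a gene's fragments by its exon length and by a measure of library size, which here was not the total of recovered reads. Together the 4 genes held 8.20%, 12.6% and 9.83% of the FPKM total in the WT libraries and 10.8%, 7.96% and 7.53% in the KO libraries. Counted in reads recovered from the FPKM steps, which are not corrected for length, their share was 2.36% to 4.72% of 16722676 to 20113399 reads per library. The exact 95% interval for the highest share, in WT replicate 2, was 4.71% to 4.73%, and such intervals cover counting error only.

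The level of Hba-a1 was 18473, 40069 and 25787 FPKM in WT replicates 1 to 3 and 32924, 20239 and 18023 FPKM in KO replicates 1 to 3. The groups overlapped, and WT replicate 2 and KO replicate 1 were the highest of their groups. The means were 28110 ± 10984 FPKM in WT and 23729 ± 8040 FPKM in KO bone (SD, n = 3), a log2(FPKM + 1) difference, KO minus WT, of -0.22 with a standard error of 0.58 (limma adjusted p = 0.875).

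Hba-a2, the second alpha copy, stood at 2712, 2325 and 652 FPKM in the WT libraries and at 3883, 1912 and 1851 FPKM in the KO libraries. WT replicate 3 was lowest by a wide margin, and the other 2 WT libraries lay inside the KO range. The means were 1897 ± 1095 and 2549 ± 1156 FPKM (SD, n = 3), a log2 difference of 0.58 with a standard error of 0.60 (limma adjusted p = 0.660).

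Hbb-bs, the more abundant beta gene, stood at 6261, 13492 and 9576 FPKM in the WT libraries and at 10600, 6985 and 5867 FPKM in the KO libraries. The order of the 6 libraries was the same as for Hba-a1, and the groups overlapped. The means were 9776 ± 3619 and 7817 ± 2474 FPKM (SD, n = 3), a log2 difference of -0.30 with a standard error of 0.47 (limma adjusted p = 0.781).

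Hbb-bt stood at 1712, 5992 and 3801 FPKM in the WT libraries and at 5150, 2463 and 3736 FPKM in the KO libraries. Both the lowest and the highest value were in WT bone. The means were 3835 ± 2141 and 3783 ± 1344 FPKM (SD, n = 3), a log2 difference of 0.09 with a standard error of 0.53 (limma adjusted p = 0.949).

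None of the 4 globin genes passed the threshold, an adjusted p of 0.05 in limma over the 13619 genes whose mean reached 1 FPKM. Across those genes 5.16% passed. At an unadjusted limma p under 0.05 the count among the 4 was also 0, against 2812 of all genes. Voom on recovered reads called 0 of the 4 and 782 of 12939 genes. Groups that did not overlap were found in 28.4% of all genes tested and in 0 of the 4. The precision was low. The 95% intervals of the KO to WT fold ran from 0.334 to 2.20 for Hba-a1 and from 0.558 to 4.0 for Hba-a2. They ran from 0.380 to 1.74 for Hbb-bs and from 0.445 to 2.56 for Hbb-bt. Changes in either direction within these intervals were therefore not excluded. The widths depended on the variance model, the scaling and the filter. For Hba-a1 the standard error was 0.576 in the main fit, 0.334 without the trend of the variance on expression and 0.292 by voom. It was 0.249 with FPKM scaled to equal library totals and 4.66 with no filter on low values. The sign of the difference turned for Hba-a1 without WT replicate 2 (0.07), for Hba-a2 without WT replicate 3 (-0.07), and for Hbb-bt without WT replicate 1 (-0.40) or KO replicate 1 (-0.16).

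**Figure D1:**
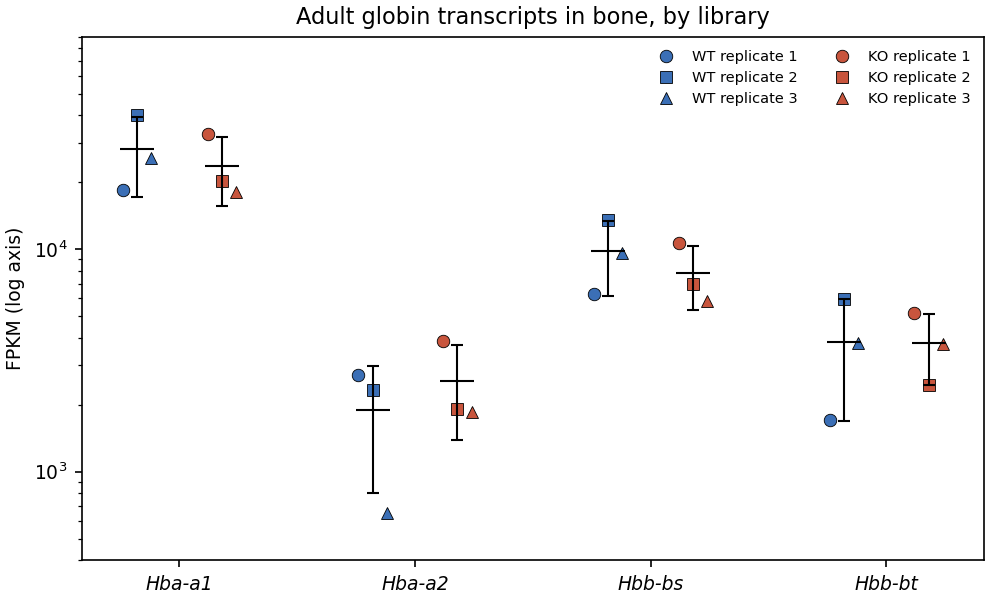
Level of the 4 adult globin genes in each library, in FPKM on a log axis; points are libraries (blue WT, red KO, shape by replicate number), and bars give the group mean and SD (n = 3). The groups overlap for every gene, and Hba-a2 in WT replicate 3, at 652 FPKM, is the lowest point.

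In every library Hba-a1 was above Hbb-bs and Hbb-bs above Hbb-bt, on the FPKM scale. Hbb-bt was above Hba-a2 in 5 of 6 libraries, the exception being WT replicate 1, and the ranges of these genes, 1712 to 5992 and 652 to 3883 FPKM, overlapped. The deposited values match summed exon lengths of 812 bases for Hba-a1, 667 for Hba-a2, 768 for Hbb-bs and 703 for Hbb-bt. The coding transcripts used here are 699, 554, 628 and 703 bases long, in the same order, and dividing by these lengths would give higher values for all but Hbb-bt.

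Summed over the copies, alpha globin stood at 30006 ± 11046 FPKM in WT and 26277 ± 9190 in KO bone (SD, n = 3), a KO to WT ratio of geometric means of 0.880. The two-sided exact permutation p was 0.600, and the smallest that 3 against 3 libraries allow is 0.1. Beta globin summed to 13611 ± 5759 and 11600 ± 3595 FPKM (SD, n = 3), a ratio of 0.883 (exact permutation p = 0.700). Over the 5 sums, ratios and shares tested this way, the adjusted p was 0.875 or above. Without WT replicate 2 the direction of both sums turned, with log2 differences of 0.10 and 0.13. In bulk bone, fewer red cell precursors and less globin RNA per cell cannot be told apart.

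Alpha and beta globin kept a narrower ratio to each other than either level did by itself. The alpha to beta ratio of FPKM sums was 2.66, 2.18 and 1.98 in WT replicates 1 to 3 and 2.34, 2.34 and 2.07 in KO replicates 1 to 3. The 3 KO values lay inside the WT range. The means were 2.27 ± 0.350 and 2.25 ± 0.157 (SD, n = 3), and the ratio of geometric means, KO over WT, was 0.997 (log2 standard error 0.14, exact permutation p = 1.00). Across the 6 libraries the highest ratio was 1.34 times the lowest, against 2.13 times for the alpha sum and 2.44 times for the beta sum. In recovered reads the ratio was 2.42 ± 0.340 in WT and 2.40 ± 0.156 in KO bone (SD, n = 3). The sign of its log2 difference turned without WT replicate 1 (0.12), without KO replicate 3 (0.06) and with the exon length trend removed (0.0002).

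The split between the alpha copies varied more. Hba-a2 gave 12.8%, 5.49% and 2.47% of alpha globin FPKM in WT replicates 1 to 3 and 10.6%, 8.63% and 9.31% in KO replicates 1 to 3. The WT libraries held both the highest and the lowest share, and the KO libraries lay between them. The means were 6.92% ± 5.31 and 9.50% ± 0.972 (SD, n = 3). For the matching share of Hba-a1 the KO to WT ratio was 0.973 (exact permutation p = 0.500). In WT replicate 3 the share rests on 7853 Hba-a2 reads of 385746 alpha globin reads, or 2.04% (exact 95% interval 1.99% to 2.08%). The low value therefore exceeds counting error. This interval takes the reads as assigned, and how reads that fit both copies were assigned is not given.

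Hbb-bt gave 21.5%, 30.8% and 28.4% of beta globin FPKM in the WT libraries and 32.7%, 26.1% and 38.9% in the KO libraries. KO replicates 1 and 3 lay above all WT libraries, and KO replicate 2 lay within the WT range. The means were 26.9% ± 4.83 and 32.6% ± 6.42 (SD, n = 3), a KO to WT ratio of geometric means of 1.21 (log2 difference 0.27, standard error 0.23, exact permutation p = 0.400).

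**Figure D2:**
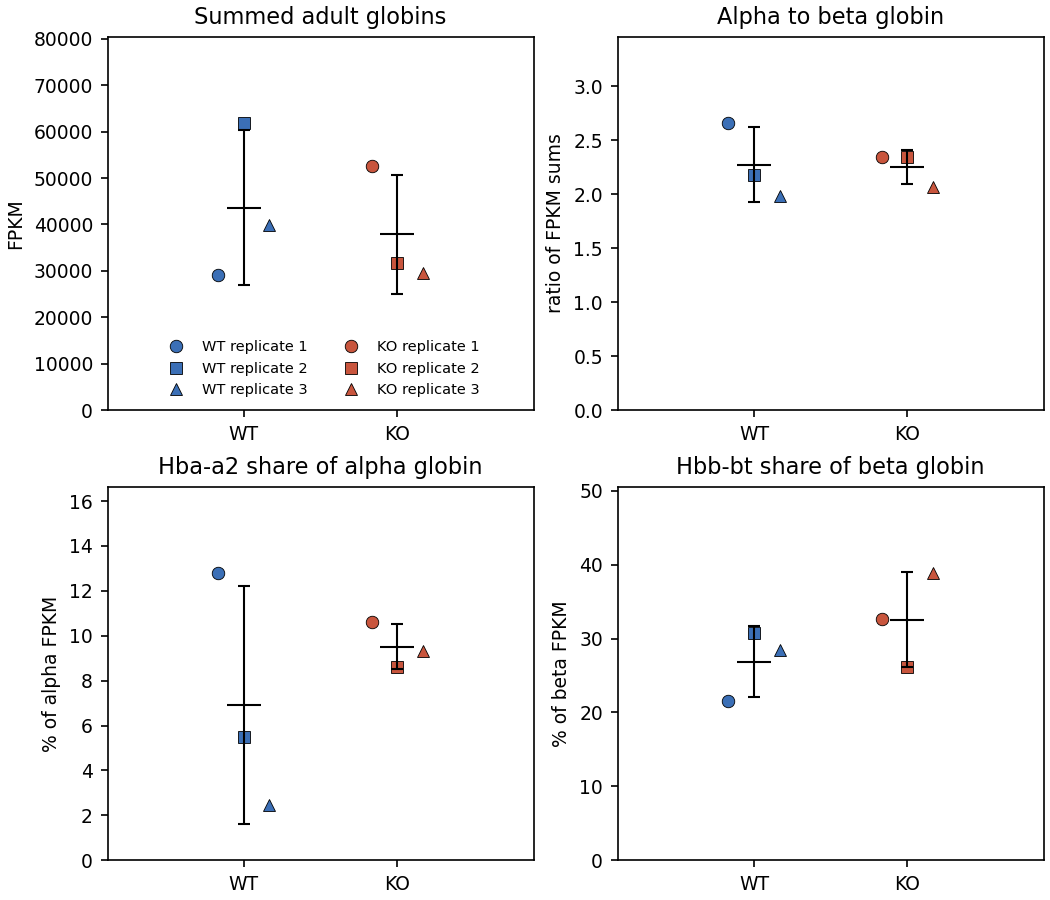
Summed adult globin FPKM, the ratio of alpha to beta FPKM sums, and the percentages contributed by Hba-a2 and Hbb-bt, per library, with group mean and SD (n = 3). All axes start at 0. The alpha to beta ratio spans 1.98 to 2.66, while the Hba-a2 share spans 2.47% to 12.8%.

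Across the 6 libraries the main alpha and beta genes moved together. Pearson's r of log2 FPKM between Hba-a1 and Hbb-bs was 0.99 (Spearman's rho 1.00), and r was 1.00 over the 4 libraries left without WT replicate 2 and KO replicate 1. Between Hbb-bs and Hbb-bt r was 0.79 (rho 0.83), and 0.40 over those 4 libraries. Between Hba-a1 and Hba-a2 r was 0.16 (rho 0.31), and -0.93 over those 4. These are descriptions over few libraries, and the genes share library, scaling and transcript length class.

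WT replicate 2 and KO replicate 1, the libraries with the highest globin sums (61879 and 52557 FPKM), also stood apart in other ways. Summed over all genes they reached 489576 and 487102 FPKM, while the other 4 libraries lay between 355787 and 404994. The library size that fits their FPKM steps was 19514680 and 16578350 reads, below the recovered reads of 20113399 and 17519541. In every other library it lay above the recovered reads. At the exon length of Hba-a1 their smoothed deviation from the mean of all libraries, taken over all genes, was 0.17 and 0.20 on the log2 scale, against -0.15 to -0.03 in the other 4. The deviation of the globin sum itself was 0.67 and 0.43 in these libraries, and -0.42, 0.03, -0.30 and -0.40 in WT replicates 1 and 3 and KO replicates 2 and 3. With the trend on exon length removed, the log2 differences were -0.24 for Hba-a1, 0.55 for Hba-a2, -0.32 for Hbb-bs and 0.07 for Hbb-bt. Without both libraries they were -0.19, 0.50, -0.27 and 0.25 in the same order. None of the 4 passed in limma under either alternative.

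The protein-coding genes ranked as most like the globin sum were not erythroid by name. This ranking left out the adult globins and genes with a Gm number or a Rik clone name. The 5 ranked genes with the highest Pearson's r over the 6 libraries were Smim4 (0.997), Mcrip1 (0.996), Sat1 (0.996), Pon2 (0.996) and Mrpl13 (0.996). Sat1 encodes a polyamine acetyltransferase, Pon2 a paraoxonase and Mrpl13 a mitochondrial ribosomal protein. Their levels were far lower, from 6.30 ± 1.35 FPKM for Mrpl13 in KO bone to 66.0 ± 11.9 FPKM for Sat1 in WT bone (SD, n = 3). In all, 5.89% of genes tested had an r of at least 0.9 with the globin sum, with a median exon length of 2146 bases, and 7.75% had an r of -0.9 or below, with a median of 8191 bases. The median over all genes tested was 3810 bases. Of the erythroid lists described below, Prdx2 (0.94), Gpx1 (0.94) and Sod1 (0.93) also had an r of at least 0.9. Other list members had an r of -0.9 or below, namely Nr2c2 (-0.98), Atrx (-0.97), Bach1 (-0.97), Zbtb7a (-0.94) and Trim58 (-0.92). The part of exon length in these likenesses was not tested.

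To set the globins beside other genes of red cell development, 5 lists of erythroid genes were compared between the genotypes. None of the members tested passed the threshold in either direction, against 5.16% of all genes tested, and 0 of them had an unadjusted limma p under 0.05, against 2812 of 13619. Medians of the log2 difference were 0.12 for 21 regulators of the globin loci, 0.01 for 12 heme synthesis and transport genes, 0.01 for 17 red cell membrane genes, -0.01 for 14 genes of globin quality control, redox defence and red cell maturation, and 0.08 for 6 genes of early progenitors. The median over all genes tested was 0.060. Groups did not overlap for 2, 0, 0, 0 and 1 of these genes, in the same order, against 28.4% of all genes.

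Among the regulators, Myb, a factor of proliferating progenitors, stood at 15.2 ± 1.55 FPKM in WT and 18.4 ± 0.843 FPKM in KO bone (SD, n = 3). All KO values lay above all WT values, with a log2 difference of 0.26 (limma adjusted p = 0.266). Bcl11a, a repressor of embryonic and fetal globin genes, stood at 3.41 ± 0.493 and 4.02 ± 0.0731 FPKM (SD, n = 3), also without overlap (log2 difference 0.19, limma adjusted p = 0.447). Lmo2, a bridging protein of the erythroid activator complex, stood at 135 ± 19.9 and 160 ± 11.9 FPKM (SD, n = 3; log2 difference 0.25, limma adjusted p = 0.453).

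In heme synthesis, the smallest p-values belonged to Slc25a37, the mitochondrial iron importer mitoferrin (213 ± 33.2 and 256 ± 19.1 FPKM in WT and KO, SD, n = 3; log2 difference 0.27), Alad (log2 difference -0.30) and Cpox (0.20), with limma adjusted p-values of 0.450, 0.531 and 0.630. Among membrane genes they were the water channel Aqp1 (-0.25), Xk (0.25) and Rhag (0.18), with limma adjusted p-values of 0.552, 0.587 and 0.624. In quality control they were the chaperone Hspa8 (334 ± 76.2 and 428 ± 61.0 FPKM; 0.37), the heme-regulated translation kinase Eif2ak1 (-0.14) and the peroxiredoxin Prdx2 (-0.24), with limma adjusted p-values of 0.414, 0.630 and 0.711. Among progenitor genes they were Gata2 (5.27 ± 0.198 and 4.38 ± 0.110 FPKM, without overlap; -0.22), Kit (0.23) and the transferrin receptor Tfrc (0.11), with limma adjusted p-values of 0.266, 0.374 and 0.776.

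**Figure D3:**
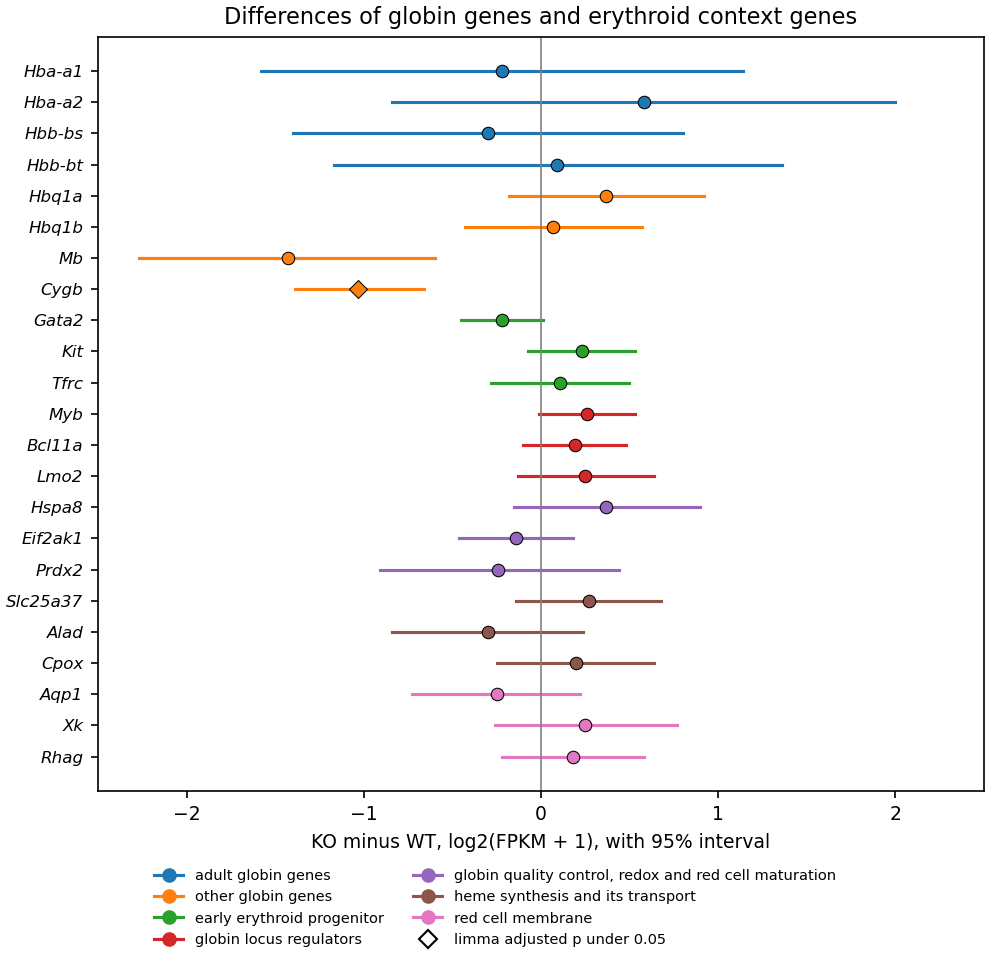
Difference between KO and WT bone in log2(FPKM + 1) with its 95% interval from limma, for the adult globins, other globin genes and the named erythroid genes, coloured by list. Every interval of the adult globins spans 0; Cygb, drawn as a diamond at -1.03, is the one gene shown that passed the threshold.

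Globin levels did not follow all other late red cell genes from library to library. Per FPKM of Alas2, the erythroid enzyme that starts heme synthesis, the globin sum was 56.5, 109 and 50.6 in WT replicates 1 to 3 and 75.5, 47.3 and 51.3 in KO replicates 1 to 3. WT replicate 2 was again highest. Per FPKM of Slc4a1, the band 3 anion exchanger, it was 54.4, 178 and 54.5 in WT and 114, 54.0 and 51.2 in KO bone, so that WT replicate 2 and KO replicate 1 stood above 4 near-equal libraries.

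**Figure D4:**
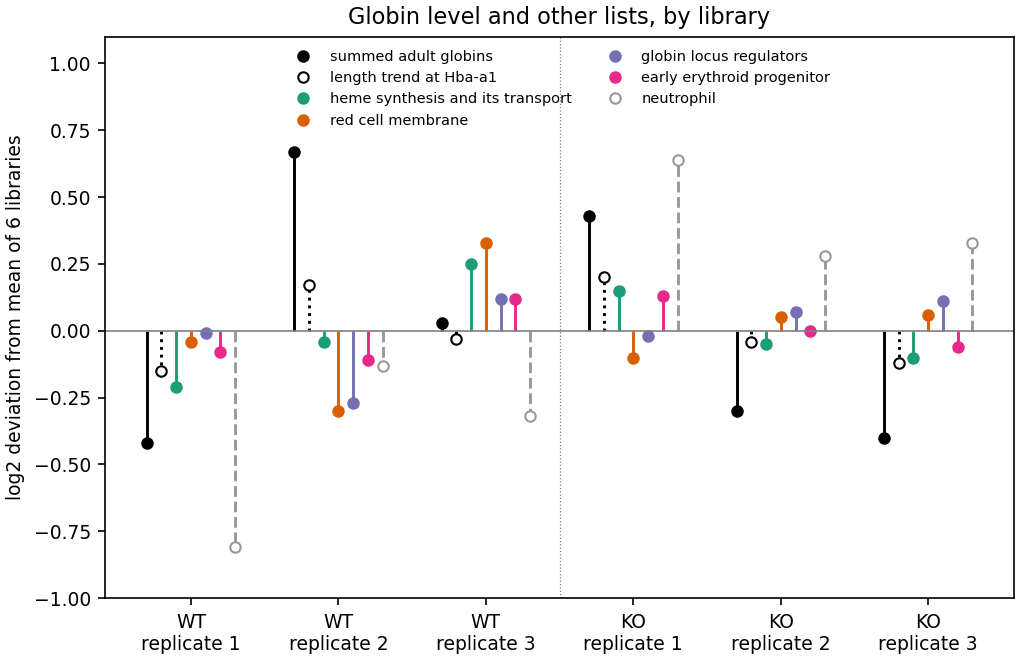
Deviation of each library from the mean of the 6 libraries, in log2 units, for the globin sum, the smoothed trend at the exon length of Hba-a1, and the mean over each of 4 erythroid lists and a neutrophil list. The globin sum is highest in WT replicate 2 (0.67) and KO replicate 1 (0.43), where the length trend is also above 0 (0.17 and 0.20). In these libraries, in that order, the membrane list stands at -0.30 and -0.10 and the regulators at -0.27 and -0.02. The heme list stands at -0.04 and 0.15, and the early progenitor list at -0.11 and 0.13.

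Embryonic globins were near the limit of detection. Hbb-y, the embryonic epsilon-type gene, ranged from 0.243 to 0.350 FPKM in WT and from 0.183 to 0.476 FPKM in KO libraries. Hbb-bh1 stood at 0.304 ± 0.111 and 0.160 ± 0.0573 FPKM, and Hba-x, the zeta-type gene, at 0.273 ± 0.103 and 0.375 ± 0.113 FPKM (SD, n = 3). Hbb-bh2 reached 0.311 FPKM at most. All lay below the filter on low values, so they were not tested. The pseudogenes Hbb-bh0 and Hbb-bh3 were listed at 0 in every KO library and reached 0.859 and 0.208 FPKM at most in WT, Hba-ps3 was listed at 0 throughout, and Hba-ps4 stood at 0.0744 ± 0.0645 and 0.438 ± 0.0884 FPKM (SD, n = 3), at most 0.540 FPKM in a library. Hbb-b1 and Hbb-b2, the adult genes of another beta haplotype, were not analysed here.

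The theta-type genes of the alpha locus were measurable. Hbq1b, which lies between the alpha copies, stood at 37.4, 47.0 and 62.0 FPKM in WT and 54.2, 55.6 and 41.8 FPKM in KO bone (log2 difference 0.07, limma adjusted p = 0.90). Hbq1a, just past Hba-a2, stood at 4.23 ± 1.68 and 5.56 ± 0.671 FPKM (SD, n = 3; log2 difference 0.37, limma adjusted p = 0.437). The groups overlapped for each gene. Nprl3, whose introns hold the alpha globin enhancers, stood at 5.52 ± 0.432 and 4.94 ± 0.171 FPKM (SD, n = 3), without overlap (log2 difference -0.13, limma adjusted p = 0.543).

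Of the 3 protein-coding genes annotated on each side of the pairs and Hbq1b between the alpha copies, 1 passed the threshold. Across all genes tested 5.16% passed, and not all of these neighbours could be tested. Sh3pxd2b, an adaptor of invasive cell protrusions that lies on chromosome 11 from 32347820 to 32428173, fell from 5.58, 3.91 and 3.62 FPKM in WT to 1.58, 1.74 and 2.05 FPKM in KO bone (log2 difference -0.93, limma adjusted p = 0.0312). Its call was lost without WT replicate 1 (adjusted p = 0.0914), WT replicate 2 (0.0593) or KO replicate 1 (0.0879), 2 (0.12) or 3 (0.0577). Ubtd2, on the same side of the alpha pair, stood at 4.47 ± 0.742 and 2.60 ± 0.465 FPKM in WT and KO (SD, n = 3). Its groups did not overlap, and it did not pass (log2 difference -0.60, limma adjusted p = 0.0747). The 6 neighbours of the beta pair all lay below the filter on low values, as did Hba-x.

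Of the globins of other tissues, 1 passed the threshold. Cygb, cytoglobin, a globin of fibroblast-like cells, stood at 7.37, 9.65 and 7.11 FPKM in WT and 3.11, 4.06 and 3.12 FPKM in KO bone, and it fell by 1.03 on the log2 scale (standard error 0.15, limma adjusted p = 0.0201). Its call was lost without WT replicate 1 (adjusted p = 0.0711) or KO replicate 1 (0.0625), 2 (0.0609) or 3 (0.0519). Mb, myoglobin, the oxygen store of muscle, stood at 225, 387 and 163 FPKM in WT and 67.6, 85.5 and 123 FPKM in KO bone. All KO values lay below all WT values, and it did not pass (log2 difference -1.43, limma adjusted p = 0.0679). Ngb, neuroglobin, reached 0.327 FPKM at most.

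Markers of other cell types differed between the same groups, read against the 5.16% of all genes tested that passed (183 higher and 520 lower of 13619). Of 6 skeletal muscle markers 2 passed as lower in KO. The summed level of this list ranged from 3516 to 6240 FPKM in WT and from 1805 to 2664 in KO libraries. Of 6 adipocyte markers 6 passed as lower (512 to 786 against 82.5 to 156 FPKM). Of 6 chondrocyte markers tested 6 passed as lower (194 to 288 against 7.16 to 28.8 FPKM). Of 8 osteoblast markers 2 passed as lower (1620 to 3006 against 685 to 1455 FPKM). Of 10 neutrophil markers 3 passed as higher (21576 to 40775 against 40624 to 52434 FPKM). Of 8 B cell markers 2 passed as lower (271 to 334 against 190 to 350 FPKM). At an unadjusted limma p under 0.05 the counts were 6 of 6 muscle, 7 of 8 osteoblast, 5 of 10 neutrophil and 3 of 8 B cell markers. Across all genes that count was 2812 of 13619. The log2 difference was positive for 0 muscle, 0 osteoblast, 10 neutrophil and 2 B cell markers. The 4 adult globins summed to 29157 to 61879 FPKM in WT and 29477 to 52557 in KO libraries, so the KO range lay inside the WT range. The part of these cell types in the levels of Cygb, Mb and the adult globins was not tested.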

How the data were processed

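RNA from bone was sequenced in 3 WT and 3 KO libraries, grouped by sample title. The values deposited by the authors are FPKM, in a single table. Bowtie 0.12.2 and mm10 are named in the submitters' processing notes. Not given in the sources used here are the read counter, the annotation, and how strand and multiply mapped reads were treated. Of 54532 gene identifiers 54409 matched GENCODE M21. FPKM times exon length moved in fixed steps, and 96.95% of 29565 genes above 0 gave whole reads in all libraries, within 0.01 reads.

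Genes averaging at least 1 FPKM were compared on the log2(FPKM + 1) scale, which understates changes of low genes. The fit used limma 3.58.1 under R 4.3.3, with a trend of the variance on expression. P-values were adjusted by Benjamini-Hochberg over all genes tested. Sums and ratios were compared by two-sided exact permutation tests of log2 values. The exon length trend was a lowess curve (span 0.3) of each library's deviations. The genes and lists were chosen with earlier results of these data known. Named were the globin genes, the 3 smallest p-values per erythroid list, neighbours past the threshold, and the 5 genes most like the globin sum. These 5 were taken from protein-coding genes other than the adult globins and those with a Gm number or Rik clone name. Nprl3, Ubtd2, Alas2, Slc4a1 and the list members given by their r with the globin sum were named after their values were seen. The scripts were tested on simulated data. Alternatives covered the pseudocount (0.1 and 10), the filter, the scaling, the variance model, the replicate block, voom, the length trend and libraries left out. Libraries of 1 group differed beyond sampling noise, with a chi-square of 14.1 to 83.3 for each degree of freedom. Promoter and microRNA sequences come from RefSeq (GRCm38.p6), and transcripts from GENCODE M21.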

Additional observations from a re-analysis of the deposited data

How the results depend on the processing

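The 4 adult globin genes were not called in limma under any of the 19 alternatives. Some of these could hardly have called them. With no filter on low values the standard error was 4.66 for Hba-a1 and 1.80 for Hbb-bs, and with the replicate block 1.12 for Hba-a1. The direction of the log2 difference turned for Hba-a1 without WT replicate 2 (0.07), for Hba-a2 without WT replicate 3 (-0.07), and for Hbb-bt with array weights (-0.33), without WT replicate 1 (-0.40) and without KO replicate 1 (-0.16). It turned for the alpha globin sum (0.10) and the beta globin sum (0.13) without WT replicate 2, and for the alpha to beta ratio with the exon length trend removed (0.0002), without WT replicate 1 (0.12) and without KO replicate 3 (0.06). Hbb-bs kept its direction in all 19. Leaving out 1 library at a time gave ranges of -0.49 to 0.07 for Hba-a1, -0.07 to 0.96 for Hba-a2, -0.40 to 0.50 for Hbb-bt, -0.45 to 0.10 for the alpha globin sum, -0.52 to 0.13 for the beta globin sum and -0.10 to 0.12 for the alpha to beta ratio. The cause of these turns was not tested.

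The count of genes past the threshold was 703, and 143 with no filter on low values, 365 with a mean FPKM of at least 5, 3354 with array weights, 1206 with the exon length trend removed and 238 without both libraries that stood apart. Leaving out 1 library gave 62 to 409. Of these calls 26.0% were higher in KO, against 46.2% with array weights, 36.4% with a mean FPKM of at least 5, 15.0% with the replicate block and 16.9% to 32.6% with 1 library left out. With the replicate block 127 genes passed, and no globin call changed. Same-numbered libraries did not deviate together (Pearson's r across genes of -0.49, -0.27 and 0.16). Whether the replicate numbers mark a shared batch cannot be told from these values. The calls of Cygb and Sh3pxd2b were examined under the same alternatives after their values were seen. With no filter, neither passed (adjusted p = 0.0618 and 0.0839), nor without both libraries that stood apart (0.0562 and 0.0857). Sh3pxd2b also did not pass with the replicate block (0.107) or with FPKM scaled to equal library totals, over all genes (0.0885) or without the globins (0.0659). Mb passed with array weights (0.0151) and by voom (0.0467). Alternatives for Ahsp were not run. Each globin value rests on at least 7853 recovered reads, and libraries of 1 group differed by more than counting error.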
